A study of Mus musculus with 6 samples.

Results

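The lysosome genes described here were the genes that carried the KEGG lysosome entry mmu04142 in the deposited table and reached at least 10 counts summed over its 6 libraries. They numbered 124 of 57180 genes. Another 11 genes with that entry were under the minimum, of which 8 had no count in any library and 3 had 1 to 3 counts (Hyal4, Ap3b2 and Atp6v0a4). Of the 124 genes, 119 were abundant enough to be tested, and the 5 that were not (Ctsk, Hyal1, Hyal3, Dnase2b and Atp6v0d2) held 12 to 66 counts in all.

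The libraries were made from natural killer (NK) cells of fibrotic mouse liver, and the question was how NK cells that carry the lipid scavenger receptor CD36 differ from those that do not. All mice were male C57BL/6J, 6 to 8 weeks old, and received carbon tetrachloride (CCl4) for 4 weeks, as a 20% solution injected 2 times weekly at 2.5 ml/kg. Liver cells were taken 48 h after the last dose. CD3- NK1.1+ cells were sorted by surface CD36 into CD36+ NK (n = 3) and CD36- NK (n = 3). Both groups therefore came from CCl4-treated liver, and no library from untreated liver was used here. The labels do not say whether the 3 libraries of a group came from separate mice or from pools, so p-values measured only the spread between these libraries.

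Lysosomes are acidic compartments that break down protein, lipid, glycan and nucleic acid delivered by endocytosis, phagocytosis and autophagy. Their enzymes are made in the endoplasmic reticulum, tagged with mannose 6-phosphate in the Golgi and carried by receptors to a lumen that a proton pump keeps acidic. Macrophages are rich in lysosomes for digesting engulfed material, whereas NK cells keep perforin and granzymes in secretory lysosomes, and transcription factors of the TFEB family bind an E-box called the CLEAR element at many lysosomal genes.

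The 6 libraries held 10292480 to 13787189 counts each, and replicates of a group differed by far more than sampling noise (chi-square per degree of freedom 14.8 to 29.2). Cd36, the gene the sort was based on, had 109.7, 263 and 238 CPM in the CD36+ NK libraries and 14.3, 31.7 and 17.1 CPM in the CD36- NK libraries (log2 fold change 3.27, SE 0.43, adjusted p = 0.00615 by edgeR), so each label matched its library. CPM are counts per 1000000 after scaling by the trimmed mean of M-values (TMM), and values are listed in the order of replicates 1, 2 and 3. The 10 NK lineage markers summed to 933 to 1129 CPM in CD36+ NK against 4956 to 6310 CPM in CD36- NK, with 10 of 10 lower. The 13 macrophage and Kupffer cell markers summed to 6669 to 9417 CPM against 2429 to 5768 CPM, with 4 of 11 tested higher and 11 of 11 above 0. Lyz2, the most abundant gene of the list, did not pass the test (log2 fold change 0.09, adjusted p = 0.882 by edgeR). It had 4305, 4096 and 3486 CPM in CD36+ NK and 4747, 4330 and 2052 CPM in CD36- NK. Without Lyz2 the list summed to 2363, 3671 and 5931 CPM in CD36+ NK and 562, 1438 and 377 CPM in CD36- NK. Of its defining markers, Clec4f had 17, 624 and 0 counts in CD36+ NK and 0 counts in each CD36- NK library, and Timd4 and Vsig4 were at 0 in 1 and 2 CD36- NK libraries respectively. Erythroid markers also differed, with 5 of 8 higher, as did B cell markers, with 5 of 8 past the adjusted p alone. The 8 B cell markers summed to 4361 to 4851 CPM in CD36+ NK, above the NK lineage sum there. In CD36- NK they summed to 2953 to 3420 CPM, below the NK lineage sum. In bulk libraries, fewer cells of a type and less RNA per cell cannot be told apart.

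With all 6 libraries, more lysosome genes were higher than lower in CD36+ NK, and the size of that excess depended on single libraries. By the study's thresholds for a differentially expressed gene (DEG; adjusted p below 0.05 and a fold above 2), 13 of the 119 tested members were higher (10.9%) where 2.98% of all 14761 tested genes were. Lower DEGs among the members numbered 2 (1.68%), where the share of all tested genes was again 2.98%. By the adjusted p alone 29 members were higher (24.4%, against 5.07% of all tested genes) and 7 were lower (5.88%, against 5.44%). The libraries of the 2 groups did not overlap for 55 members that were higher (46.2%, against 17.0%) and 11 that were lower (9.24%, against 15.7%). The median log2 fold change of the members, CD36+ NK over CD36- NK, was 0.23 with quartiles of -0.03 and 0.64, and that of all tested genes was 0.01 with quartiles of -0.19 and 0.27. The members together took 2.04% to 2.68% of the counts of a CD36+ NK library and 1.46% to 1.89% of those of a CD36- NK library.

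The number of higher DEGs among the members moved by more than 1.5 times when any of 4 libraries was left out. It was 4 without CD36+ NK replicate 2, 2 without CD36+ NK replicate 3, 2 without CD36- NK replicate 1 and 3 without CD36- NK replicate 3. It was 17 without CD36+ NK replicate 1 and 18 without CD36- NK replicate 2. Higher DEGs over all tested genes fell and rose in the same fits, from 440 to 120, 132, 94 and 143 in the first 4 and to 568 and 708 in the last 2. The members' share of higher DEGs was then 3.28%, 1.65%, 1.65%, 2.48%, 14.0% and 14.8%, beside 0.806%, 0.885%, 0.630%, 0.936%, 3.73% and 4.63% of all genes tested in these fits. The number of lower DEGs among the members was 2 or 3 in each of them. By the adjusted p alone, the 29 higher members became 6, 5, 4 and 8 in the first 4 fits and 30 and 33 in the last 2, and the 7 lower members became 5 to 7. With replicates 2 and 3 of both groups only, a choice made after seeing the data, 1 member was a higher DEG (0.840%, against 0.714% of all tested genes) and 3 were lower (2.52%, against 2.20%), so the excess of higher DEGs was absent. The 29 higher and 7 lower members of the full set kept their direction in all 6 left-out fits, while 9 of the 36 kept an adjusted p below 0.05 throughout. Those 9 were Ctsl, Laptm4b, Acp5 and Atp6v0a1, which were higher, and Ctsw, Arsb, Abca2, Atp6v0a2 and Igf2r, which were lower.

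**Figure D1:**
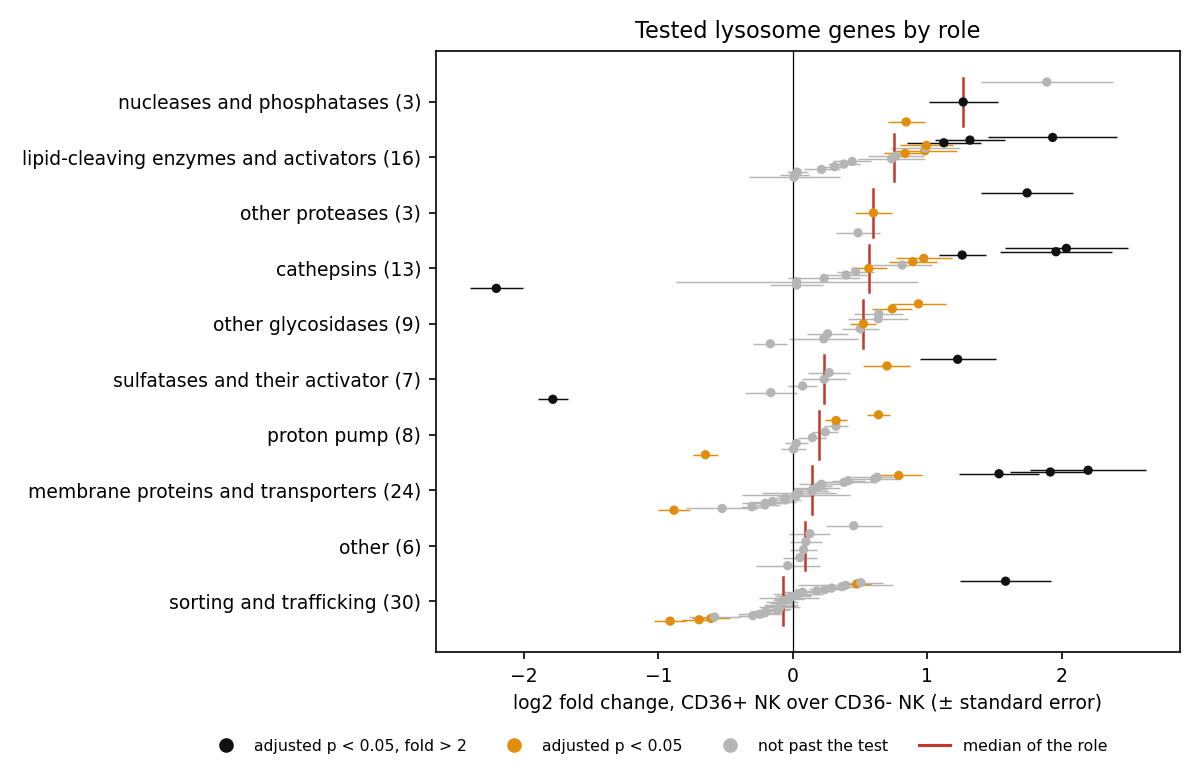
Log2 fold change of the 119 tested lysosome genes, CD36+ NK over CD36- NK, by role, with the number tested in brackets and horizontal bars for the standard error. Enzyme roles lie mostly right of 0, with medians of 0.23 to 1.27, and the sorting and trafficking genes are centred at -0.07.

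Of 13 tested cathepsins, the main lysosomal proteases, 6 were higher (46.2%, against 5.07% of all tested genes) and 1 was lower (7.69%, against 5.44%) by the adjusted p, the lower share being near the background. Their median log2 fold change was 0.56, and 3 of the 6 were DEGs (Ctsb, Ctsf and Ctsl). Ctsb, a cysteine protease of broad specificity, had 1664, 2349.7 and 3632 CPM in the CD36+ NK libraries and 555, 1029 and 387 CPM in the CD36- NK libraries (log2 fold change 1.96, SE 0.42, adjusted p = 0.0306 by edgeR). Its groups did not overlap, although CD36- NK replicate 2 was well above the other CD36- NK libraries. Ctsl, another broad endoprotease, had 46.3, 48.5 and 69.5 CPM in the CD36+ NK libraries and 24.7, 22.6 and 21.3 CPM in the CD36- NK libraries (log2 fold change 1.26, SE 0.18, adjusted p = 0.00717 by edgeR). Ctsf, also a cysteine protease, had 6.76, 6.47 and 11.1 CPM in the CD36+ NK libraries and 1.38, 3.45 and 1.07 CPM in the CD36- NK libraries (log2 fold change 2.03, SE 0.46, adjusted p = 0.0357 by edgeR), so it changed from a low level. For Ctsl the spread within each group was small beside the gap between groups, and it was the only one of these 3 to keep an adjusted p below 0.05 whichever library was left out.

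Ctss, which trims the invariant chain of MHC class II molecules, was the most abundant cathepsin by the authors' FPKM, with 617 ± 74.95 in CD36+ NK and 325 ± 90.6 in CD36- NK (SD, n = 3). In CPM it had 944, 1180.4 and 1261 CPM in the CD36+ NK libraries and 587, 719 and 418 CPM in the CD36- NK libraries (log2 fold change 0.97, SE 0.21, adjusted p = 0.0316 by edgeR). Ctsz and Ctsh, both exopeptidases, were past the adjusted p with log2 fold changes of 0.89 and 0.56. The position of Ctsz overlaps Nelfcd on the opposite strand, whose counts equalled 15.7% of its own.

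Ctsw, a cathepsin found mainly in cytotoxic lymphocytes, went the other way with 91.9, 64.7 and 58.6 CPM in the CD36+ NK libraries and 311, 293 and 388 CPM in the CD36- NK libraries (log2 fold change -2.20, SE 0.20, adjusted p = 0.00158 by edgeR). Its highest CD36+ NK library was far below its lowest CD36- NK library, and it was lower in every left-out fit. Fibp lies over part of Ctsw on the opposite strand, with 15.8% as many counts.

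The remaining cathepsins included enzymes whose groups overlapped. Ctsd, the main aspartic protease of the lysosome, had 619, 604 and 996 CPM in the CD36+ NK libraries and 751, 708 and 718 CPM in the CD36- NK libraries (log2 fold change 0.03, adjusted p = 0.951 by edgeR), with CD36+ NK replicate 3 above the rest. Ctsc, which activates granzymes by removing a dipeptide, had 400.2, 529 and 669.8 CPM in the CD36+ NK libraries and 291, 374 and 245 CPM in the CD36- NK libraries without overlap, and its log2 fold change of 0.81 missed the threshold (adjusted p = 0.0626 by edgeR). Ctsa, Ctso, Ctse and Ctsg had log2 fold changes of 0.47, 0.40, 0.23 and 0.03, none past the test.

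Inhibitors of proteases outside the KEGG entry also split. Of 9 genes listed as cathepsin inhibitors 5 were tested, and 2 were higher and 2 lower DEGs (40% each, against 2.98% of all tested genes in each direction). With so few genes, 1 call moves these shares widely. Cst3, which encodes the secreted inhibitor cystatin C, had 574, 650.1 and 699 CPM in the CD36+ NK libraries and 267, 317 and 164 CPM in the CD36- NK libraries (log2 fold change 1.36, SE 0.23, adjusted p = 0.0147 by edgeR), without overlap. Cst7, which encodes cystatin F of cytotoxic and other immune cells, had 16.1, 10.9 and 7.15 CPM in the CD36+ NK libraries and 52.4, 45.00 and 58.01 CPM in the CD36- NK libraries (log2 fold change -2.19, SE 0.28, adjusted p = 0.00572 by edgeR), with all CD36+ NK libraries below all CD36- NK libraries. The other DEGs of the list are better known for serine proteases: Spint1, an inhibitor of hepatocyte growth factor activator, was higher (log2 fold change 1.07, adjusted p = 0.0442 by edgeR), and Serpinb9, an inhibitor of granzyme B, was lower (log2 fold change -2.00, adjusted p = 0.000428 by edgeR). The lower calls of Cst7 and Serpinb9 held whichever library was left out, whereas those of Cst3 and Spint1 were lost without CD36+ NK replicate 2 or 3 or CD36- NK replicate 1, and that of Spint1 was also lost without replicate 1 of CD36+ NK or replicate 3 of CD36- NK.

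Of the other lysosomal proteases, Lgmn and Napsa rose. Lgmn, which encodes the asparagine-specific protease legumain, had 248, 346 and 531 CPM in the CD36+ NK libraries and 98.4, 157 and 80.7 CPM in the CD36- NK libraries (log2 fold change 1.74, SE 0.34, adjusted p = 0.0231 by edgeR). Napsa, an aspartic protease, had 380.1, 439 and 423 CPM in the CD36+ NK libraries and 304, 294 and 222 CPM in the CD36- NK libraries (log2 fold change 0.60, adjusted p = 0.0396 by edgeR). Neither pair of groups overlapped, and the exopeptidase gene Tpp1 had a log2 fold change of 0.48 that did not pass the test.

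**Figure D2:**
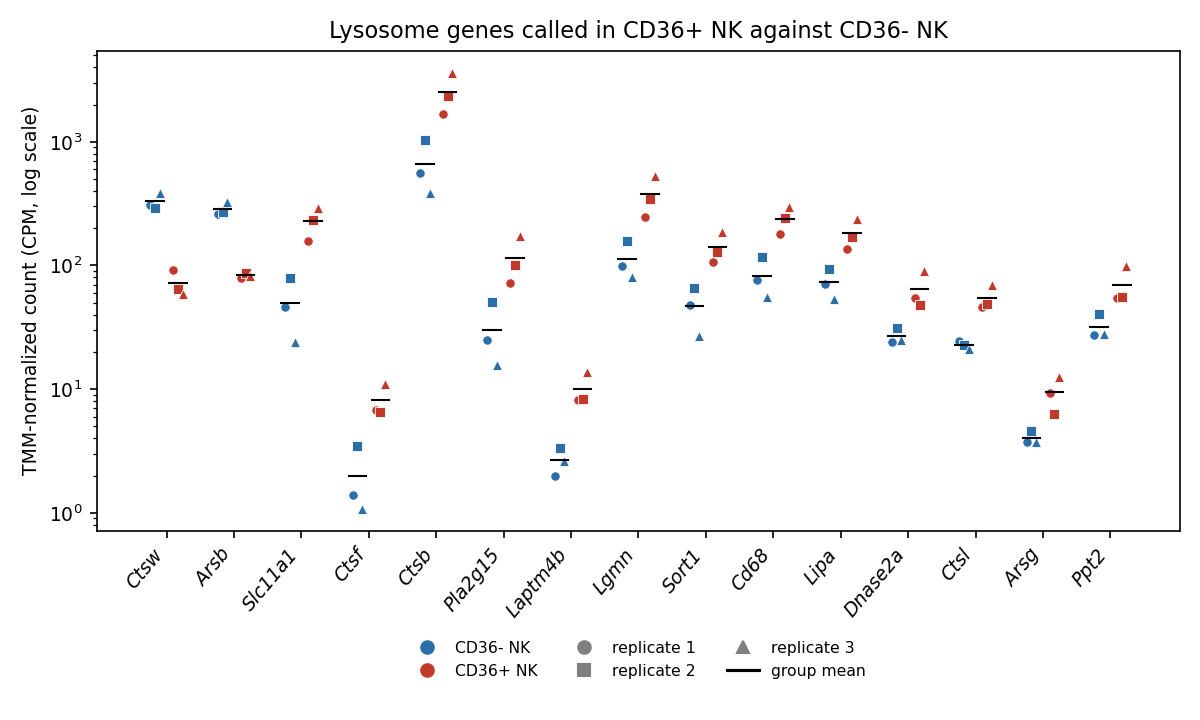
CPM per library on a log scale for the 2 lower and 13 higher lysosome DEGs, with the marker shape for the replicate and a black line for the group mean. Ctsw and Arsb sit higher in all 3 CD36- NK libraries, the other 13 in all 3 CD36+ NK libraries.

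Of 16 tested enzymes and activator proteins that cleave lipids, 6 were higher by the adjusted p (37.5%, against 5.07% of all tested genes), 0 were lower and 10 did not pass. The log2 fold change was above 0 for 16 of 16, beside 51.9% of all tested genes, with a median of 0.75, although Smpd1 and Gla turned sign with some library left out. In 12 of the 16 the groups did not overlap with CD36+ NK higher (75%, against 17.0%). Of the 6, Pla2g15, Lipa and Ppt2 were DEGs. Lipa, the acid lipase that frees cholesterol from its esters, had 137, 169.7 and 238 CPM in the CD36+ NK libraries and 70.3, 94.3 and 53.9 CPM in the CD36- NK libraries (log2 fold change 1.32, SE 0.26, adjusted p = 0.024 by edgeR). Pla2g15, a phospholipase of the lysosome, had 72.4, 100.4 and 174 CPM in the CD36+ NK libraries and 24.9, 50.4 and 15.6 CPM in the CD36- NK libraries (log2 fold change 1.93, SE 0.48, adjusted p = 0.0463 by edgeR). In both genes CD36+ NK replicate 3 was the highest library, and CD36- NK replicate 2 stood above the other CD36- NK libraries.

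Ppt2, a thioesterase, had 54.5, 55.3 and 99.2 CPM in the CD36+ NK libraries and 27.5, 40.4 and 28.03 CPM in the CD36- NK libraries (log2 fold change 1.12, SE 0.27, adjusted p = 0.0447 by edgeR). Its relative Ppt1, which removes palmitate from proteins, had a log2 fold change of 0.83 (adjusted p = 0.0212 by edgeR), but Cap1 overlaps it on the opposite strand with 42426 counts against 11703 for Ppt1. Because the table's source does not state whether counting used strand, reads of such pairs cannot be told apart, and the value of Ppt1 is uncertain.

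Asah1, the acid ceramidase, had 153, 202 and 217 CPM in the CD36+ NK libraries and 103, 111 and 72.96 CPM in the CD36- NK libraries (log2 fold change 0.99, SE 0.19, adjusted p = 0.0233 by edgeR). Gm2a, an activator protein of ganglioside breakdown, had 424, 470.3 and 521 CPM in the CD36+ NK libraries and 243, 315 and 159 CPM in the CD36- NK libraries (log2 fold change 0.98, SE 0.24, adjusted p = 0.0424 by edgeR). Both were without overlap.

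Psap, the precursor of the saposins that help enzymes reach sphingolipids, had the highest FPKM of all 124 genes, with 1028 ± 185 in CD36+ NK and 639.9 ± 198 in CD36- NK (SD, n = 3). In CPM it had 3326, 3817 and 4964 CPM in the CD36+ NK libraries and 2577, 3055 and 1650.0 CPM in the CD36- NK libraries. The groups did not overlap, but the difference missed the threshold (log2 fold change 0.73, adjusted p = 0.108 by edgeR). Hexa, which acts on gangliosides, and Galc, which cleaves galactosylceramide, had log2 fold changes of 0.77 and 0.98, neither past the test. Smpd1, the acid sphingomyelinase, and Gla, an alpha-galactosidase, lay close to 0, with log2 fold changes of 0.01 and 0.01. Smpd1, for example, had 32.4, 27.5 and 31.01 CPM in the CD36+ NK libraries and 29.3, 30.8 and 29.98 CPM in the CD36- NK libraries, with overlapping groups.

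Of 7 tested sulfatases and their activator, 2 were higher (28.6%, against 5.07% of all tested genes) and 1 was lower (14.3%, against 5.44%) by the adjusted p, in a group so small that 1 gene moves these shares widely. Arsb, which removes sulfate from dermatan and chondroitin sulfate, had 79.4, 87.3 and 82.5 CPM in the CD36+ NK libraries and 262, 272 and 325 CPM in the CD36- NK libraries (log2 fold change -1.78, SE 0.11, adjusted p = 0.000428 by edgeR). Its adjusted p was the lowest of the 119 members and the groups did not overlap. Arsg, a sulfatase of heparan sulfate, rose by 1.23 on the log2 scale (adjusted p = 0.0378 by edgeR) with 482 counts in all. Slc16a6 on the opposite strand had 5114, so the value of Arsg is uncertain too. Ids, Sgsh, Galns and the sulfatase activator Sumf1 had log2 fold changes of 0.23, 0.07, -0.16 and 0.27, none past the test.

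Among glycosidases that act on other substrates, 3 of 9 tested rose by the adjusted p (33.3%, against 5.07% of all tested genes) and no DEG was found, with a median log2 fold change of 0.52. Man2b1, an alpha-mannosidase, had 522, 629.8 and 838 CPM in the CD36+ NK libraries and 322, 419 and 299.9 CPM in the CD36- NK libraries (log2 fold change 0.93, adjusted p = 0.0327 by edgeR). Gaa, which breaks down glycogen, and Fuca1, a fucosidase, rose with log2 fold changes of 0.74 and 0.52. Manba, a beta-mannosidase, was the member of the group furthest below 0, at -0.17 without passing the test.

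The nucleases and phosphatases numbered only 3 tested genes. Dnase2a, which digests the DNA of engulfed cells, had 54.2, 47.7 and 91.04 CPM in the CD36+ NK libraries and 23.9, 31.4 and 24.9 CPM in the CD36- NK libraries (log2 fold change 1.27, SE 0.26, adjusted p = 0.0255 by edgeR). Acp5, the tartrate-resistant acid phosphatase, had 194, 199.8 and 246 CPM in the CD36+ NK libraries and 128, 127 and 101 CPM in the CD36- NK libraries (log2 fold change 0.84, SE 0.14, adjusted p = 0.013 by edgeR). Acp2, another acid phosphatase, had 72.98, 92.7 and 161 CPM in the CD36+ NK libraries and 19.7, 52.2 and 16.4 CPM in the CD36- NK libraries and a log2 fold change of 1.89, which missed the threshold (adjusted p = 0.0535 by edgeR). In Acp2 the CD36- NK replicate 2 library was more than 2 times the other CD36- NK libraries.

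Most lysosomal membrane proteins and transporters did not pass the test. Of 24 tested, 4 were higher (16.7%, against 5.07% of all tested genes) and 1 was lower (4.17%, against 5.44%) by the adjusted p, and the median log2 fold change was 0.15. Slc11a1, a transporter that moves iron and manganese out of phagosomes, had 158, 234 and 293 CPM in the CD36+ NK libraries and 45.8, 79.5 and 24.03 CPM in the CD36- NK libraries (log2 fold change 2.19, SE 0.43, adjusted p = 0.0233 by edgeR), the highest log2 fold change of the 119 members. Cd68, a mucin-like membrane protein of macrophage lysosomes, had 180.0, 239.9 and 298 CPM in the CD36+ NK libraries and 76.5, 116 and 55.6 CPM in the CD36- NK libraries (log2 fold change 1.53, SE 0.29, adjusted p = 0.0219 by edgeR). Cd68 and Slc11a1 shared the library order of Ctsb, with CD36+ NK replicate 3 highest and CD36- NK replicate 3 lowest.

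The LAPTM proteins, small membrane proteins of late endosomes and lysosomes, differed among themselves. Laptm4b, at a low level, had 8.10, 8.39 and 13.6 CPM in the CD36+ NK libraries and 2.00, 3.36 and 2.64 CPM in the CD36- NK libraries (log2 fold change 1.91, SE 0.30, adjusted p = 0.0112 by edgeR). Laptm4a had 221, 282 and 351 CPM in the CD36+ NK libraries and 158, 183 and 154 CPM in the CD36- NK libraries (log2 fold change 0.79, adjusted p = 0.0342 by edgeR). Laptm5, the family member of blood cells, had 1153, 1126 and 1227 CPM in the CD36+ NK libraries and 1267, 1183 and 1194 CPM in the CD36- NK libraries and overlapping groups (log2 fold change -0.06, adjusted p = 0.75 by edgeR).

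Abca2, a lipid transporter of the ABC family, fell in CD36+ NK, with 111, 105 and 105 CPM in the CD36+ NK libraries and 183, 179 and 232 CPM in the CD36- NK libraries (log2 fold change -0.88, SE 0.12, adjusted p = 0.0067 by edgeR). The structural glycoproteins Lamp1 and Lamp2 had log2 fold changes of 0.63 and 0.61 with groups that did not overlap, and neither passed (adjusted p = 0.0812 and 0.0903 by edgeR). Npc1 and Npc2, which hand cholesterol out of the lysosome, had log2 fold changes of -0.20 and 0.02, and Mcoln1, a calcium channel, had 0.14. For Npc2 the libraries held 331, 307 and 371 CPM in the CD36+ NK libraries and 349, 371 and 274 CPM in the CD36- NK libraries, with overlapping groups.

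The proton pump, or V-ATPase, pairs a membrane sector (V0) with an ATP-cleaving sector (V1). Of 8 tested pump members, 2 were higher (25%, against 5.07% of all tested genes) and 1 was lower (12.5%, against 5.44%) by the adjusted p, none was a DEG, and the median log2 fold change was 0.19. Within the a subunit, which has alternative forms that set where the pump goes, Atp6v0a1 rose and Atp6v0a2 fell. Atp6v0a1 had 53.8, 55.5 and 56.6 CPM in the CD36+ NK libraries and 33.98, 36.5 and 36.2 CPM in the CD36- NK libraries (log2 fold change 0.64, SE 0.09, adjusted p = 0.00682 by edgeR). Atp6v0a2 had 84.4, 92.5 and 92.03 CPM in the CD36+ NK libraries and 139, 151 and 132 CPM in the CD36- NK libraries (log2 fold change -0.65, SE 0.09, adjusted p = 0.00717 by edgeR). In both genes the replicates lay close together and the groups were apart, and both calls held in all 6 left-out fits.

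Tcirg1, the a3 form, had 199, 222 and 214 CPM in the CD36+ NK libraries and 206, 217 and 201 CPM in the CD36- NK libraries (log2 fold change 0.03, adjusted p = 0.894 by edgeR), with overlap. Its log2 fold change and that of Atp6v1h, at 0.01, were among those of 23 tested members that changed sign when some library was left out, none of which had passed the adjusted p. Atp6v0b, of the membrane ring, had 128, 134 and 135 CPM in the CD36+ NK libraries and 108, 109 and 100.4 CPM in the CD36- NK libraries (log2 fold change 0.32, adjusted p = 0.0489 by edgeR), a call that was lost whichever library was left out. The V1 subunits listed outside the KEGG entry numbered 8 tested genes with a median log2 fold change of 0.07, and none passed the adjusted p by edgeR. Of the 13 genes that dock the growth-control kinase complex mTORC1 on the lysosome, none passed either, and their median was 0.11.

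**Figure D3:**
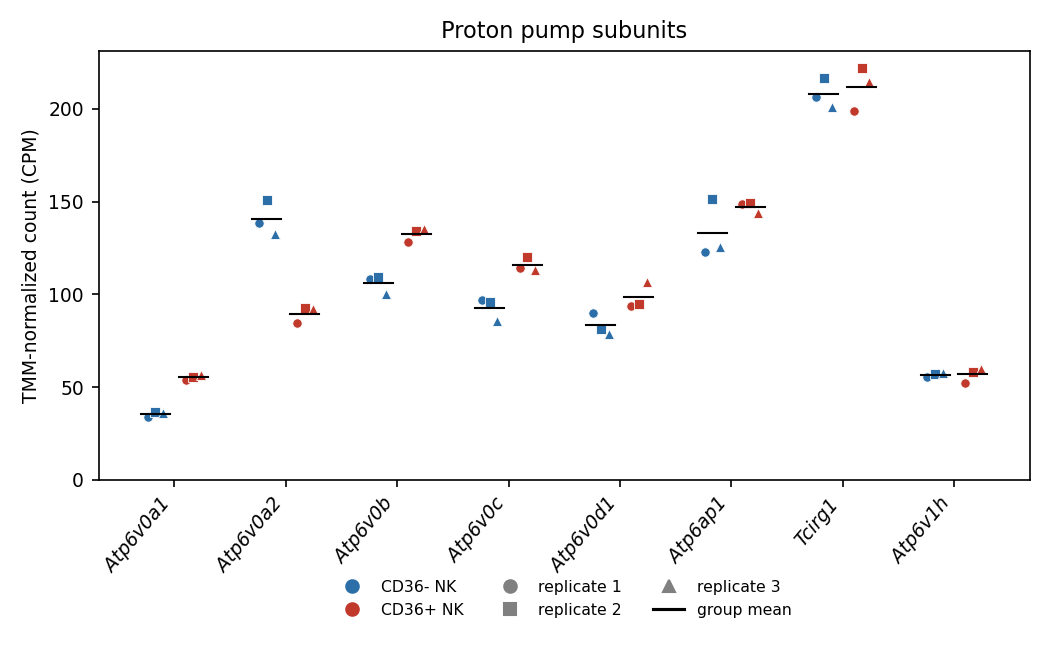
CPM per library of the 8 tested proton pump genes, with the marker shape for the replicate and a black line for the group mean. The groups separate upward for Atp6v0a1 and downward for Atp6v0a2, and overlap for Tcirg1 and Atp6v1h.

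Most genes that tag and sort lysosomal enzymes did not pass the test. Of 30 tested genes for sorting and trafficking, 2 were higher (6.67%, against 5.07% of all tested genes) and 3 were lower (10%, against 5.44%) by the adjusted p, counts near the background, and the median log2 fold change was -0.07. Igf2r, the large mannose 6-phosphate receptor, had 61.1, 55.99 and 59.8 CPM in the CD36+ NK libraries and 97.6, 108 and 128 CPM in the CD36- NK libraries (log2 fold change -0.91, SE 0.12, adjusted p = 0.00584 by edgeR). Gnptab and Gnptg encode subunits of the transferase that builds the mannose 6-phosphate tag. Gnptab had 84.1, 110.1 and 104 CPM in the CD36+ NK libraries and 139, 139.5 and 176 CPM in the CD36- NK libraries (log2 fold change -0.61, SE 0.14, adjusted p = 0.0398 by edgeR). Gnptg had 35.4, 37.01 and 37.00 CPM in the CD36+ NK libraries and 61.7, 49.1 and 66.6 CPM in the CD36- NK libraries (log2 fold change -0.70, SE 0.13, adjusted p = 0.0193 by edgeR). All 3 were lower in every CD36+ NK library than in any CD36- NK library, but the calls of Gnptab and Gnptg were lost without CD36+ NK replicate 2 or 3 or CD36- NK replicate 1 or 3, and that of Gnptab also without CD36+ NK replicate 1. Gnptg overlaps Unkl on the opposite strand, which had 2730 counts against 3386, so its value is uncertain.

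Sort1, which encodes sortilin, a receptor that carries some enzymes without the tag, moved the other way with 106, 128 and 186 CPM in the CD36+ NK libraries and 47.97, 65.5 and 26.8 CPM in the CD36- NK libraries (log2 fold change 1.58, SE 0.34, adjusted p = 0.0313 by edgeR). The call of Sort1 was likewise lost without CD36+ NK replicate 2 or 3 or CD36- NK replicate 1 or 3. M6pr, the small mannose 6-phosphate receptor, had 209.5, 231 and 262 CPM in the CD36+ NK libraries and 209, 209 and 204 CPM in the CD36- NK libraries (log2 fold change 0.18, adjusted p = 0.339 by edgeR). Nagpa, the enzyme that uncovers the tag, had 29.02, 29.4 and 51.9 CPM in the CD36+ NK libraries and 25.1, 41.3 and 17.5 CPM in the CD36- NK libraries (log2 fold change 0.39, adjusted p = 0.549 by edgeR), with overlap. Ap1s3, an adaptor subunit, rose by 0.48 on the log2 scale (adjusted p = 0.0347 by edgeR), a call lost whichever library was left out. The other clathrin, GGA and adaptor genes had log2 fold changes of -0.58 (Ap3s1) to 0.50 (Ap1s2), none past the test.

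**Figure D4:**
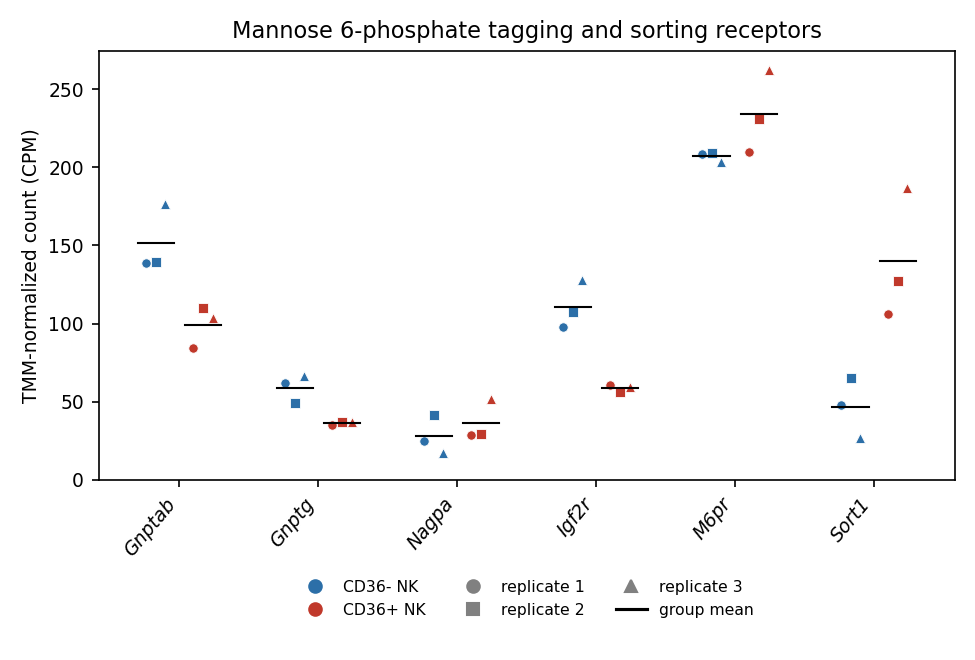
CPM per library of genes for the mannose 6-phosphate tag (Gnptab, Gnptg, Nagpa) and of sorting receptors (Igf2r, M6pr, Sort1), with the marker shape for the replicate and a black line for the group mean. Gnptab, Gnptg and Igf2r lie lower in all CD36+ NK libraries, Sort1 higher.

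The 6 tested members that the role lists did not name (Dmxl1, Dmxl2, Wdr7, Ncoa7, Fuca2 and Hyal2) had log2 fold changes of -0.04 to 0.45, and none passed the test. Fuca2 and Hyal2, at 0.08 and -0.04, also encode glycosidases but were not counted with the glycosidases above.

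Of the transcription factors of lysosomal genes, 5 were tested and 1, Mitf, was a higher DEG (20%, against 2.98% of all tested genes), a share that rests on that single gene. Mitf, a relative of TFEB, had 3.74, 10.7 and 18.7 CPM in the CD36+ NK libraries and 2.31, 2.12 and 1.56 CPM in the CD36- NK libraries (log2 fold change 2.46, SE 0.56, adjusted p = 0.0373 by edgeR), with CD36+ NK replicate 1 close to the CD36- NK libraries. Its call was kept only without CD36+ NK replicate 1 and was lost on leaving out each of the other libraries in turn. Tfeb had 97.2, 95.6 and 105 CPM in the CD36+ NK libraries and 75.95, 60.2 and 86.8 CPM in the CD36- NK libraries and Tfe3 had 70.8, 77.8 and 73.2 CPM in the CD36+ NK libraries and 60.8, 59.4 and 48.2 CPM in the CD36- NK libraries. Neither pair overlapped, and neither passed (log2 fold change 0.42, adjusted p = 0.104 for Tfeb and log2 fold change 0.40, adjusted p = 0.0681 for Tfe3 by edgeR). Tfec and the repressor Zkscan3 had log2 fold changes of 1.31 and 0.07 without passing the test.

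Promoters were searched for the CLEAR core TCACGTGA, which reads the same on both strands, and for the E-box CACGTG that lies within it. RefSeq windows of build GRCm38.p6, from 250 bases before to 50 after the start site, were matched for 98 members. The core stood in 10 of them (10.2%), against 1.12% of 27025 promoters and 2.26% of 10111 promoters of tested genes. Among the matched members that were tested, it was in 0 of 22 that were higher by the adjusted p, in 2 of 5 that were lower (Igf2r and Gnptg) and in 8 of 67 that did not pass. The shorter E-box stood in 23 members (23.5%, against 8.09% and 11.7%), among them 5 of the 22 that were higher. A match describes letters in this window and not binding.

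The 100 bases before the start site are printed for the pair of lower genes with the core, for 2 genes with the core that did not pass (the channel gene Mcoln1 and the protease gene Ctsd), and for 2 higher protease genes with the E-box alone (Lgmn and Ctsf), so that the calls can be set beside the letters. Capitals mark the core in the first 4 and CACGTG in the last 2. In GRCm38.p6 they are chr17:12769707-12769806, minus strand (Igf2r), chr17:25240117-25240216, minus strand (Gnptg), chr8:3500419-3500518, plus strand (Mcoln1), chr7:142387828-142387927, minus strand (Ctsd), chr12:102439093-102439192, minus strand (Lgmn) and chr19:4855065-4855164, plus strand (Ctsf).
Igf2r: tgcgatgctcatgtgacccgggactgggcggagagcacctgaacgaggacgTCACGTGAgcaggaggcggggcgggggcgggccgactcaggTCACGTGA
Gnptg: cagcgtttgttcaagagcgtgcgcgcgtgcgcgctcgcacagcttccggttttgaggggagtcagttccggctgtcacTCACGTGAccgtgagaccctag
Mcoln1: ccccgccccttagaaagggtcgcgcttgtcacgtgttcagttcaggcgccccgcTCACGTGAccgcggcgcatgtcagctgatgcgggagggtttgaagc
Ctsd: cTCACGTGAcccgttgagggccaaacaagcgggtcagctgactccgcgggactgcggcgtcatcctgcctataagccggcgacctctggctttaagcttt
Lgmn: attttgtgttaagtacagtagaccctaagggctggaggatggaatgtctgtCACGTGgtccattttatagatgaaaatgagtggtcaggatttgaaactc
Ctsf: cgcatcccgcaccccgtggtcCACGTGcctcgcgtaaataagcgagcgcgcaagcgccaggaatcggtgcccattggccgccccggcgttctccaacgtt
Igf2r holds the core at 2 places, which start at -49 and -8 from the start site, and its expression fell. Ctsd holds it at -99, with a log2 fold change of 0.03.

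Across libraries, the higher members shared an order within their groups. Of the 29, CD36+ NK replicate 3 was the highest of its group in 27, and CD36- NK replicate 2 was the highest of its group in 23. CD36- NK replicate 3 was the lowest in 24. The macrophage marker sum without Lyz2 had the same order, with CD36+ NK replicate 3 highest at 5931 CPM, CD36- NK replicate 2 at 1438 CPM and CD36- NK replicate 3 lowest at 377 CPM. This order was not confined to the macrophage list. The hepatocyte and sinusoidal endothelium list had it too, with 203, 268 and 282 CPM in CD36+ NK and 172, 192 and 147 CPM in CD36- NK. The monocyte, dendritic cell, B cell, T cell and erythroid sums had other orders. Of the 7 lower members, 6 were highest in CD36- NK replicate 3, where the NK lineage sum was also highest at 6310 CPM. Within CD36- NK, the dendritic cell and T cell sums were highest in that library too, at 657 and 186 CPM. The part of any marker list in the lysosome values was not tested.

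**Figure D5:**
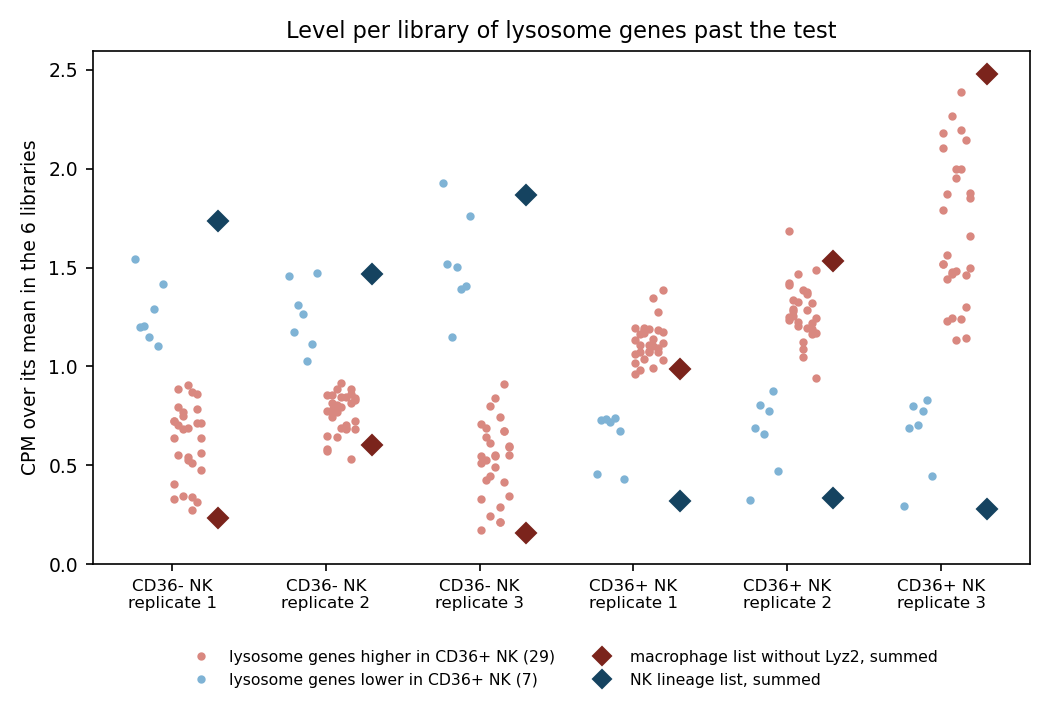
Level in each library over the mean of the 6 libraries, for the 29 higher (red points) and 7 lower (blue points) lysosome genes and for 2 summed marker lists (diamonds). The higher genes are spread most in CD36+ NK replicate 3, where the macrophage list without Lyz2 peaks, and the NK lineage list is higher in the CD36- NK libraries.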

How the data were processed

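RNA of sorted CD36+ NK and CD36- NK was sequenced on an Illumina instrument (n = 3 each). The authors filtered reads with Seqtk, mapped them with HISAT2 (version 2.0.4, also in the submitters' processing notes) and counted fragments per gene with StringTie. The deposited table held whole-number counts and FPKM, which the authors computed per gene and library. The genome build was not given in the paper or the table, and the processing notes list a rat build although the genes are mouse, so no coordinate of the table is printed. Titles set the groups, since the library names use the CD36 sign otherwise. The table's lines for Tgfb1 and Tnf, which were broken in the file, were rejoined. Neither is a lysosome gene.

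Counts were tested with the quasi-likelihood method of edgeR 4.0.16 (R 4.3.3), with TMM scaling, no block, a minimum count of 10 in its expression filter and Benjamini-Hochberg adjustment over 14761 genes. The script was tested on simulated data. Counts set the precision, and counting error was smaller than the spread between replicates. FPKM was used only to compare levels between genes. The genes named were, per role, up to 5 DEGs in each direction by lowest p, the 2 of highest FPKM, and, outside the KEGG entry, the DEGs of the pathway lists. The members, lists, roles and motifs were chosen with earlier results of these data known, and other members were named after their values were seen. Marker lists of monocytes, dendritic cells, T cells and liver cells had medians of -0.85, 0.32, 1.64 and 0.25 on the log2 scale. T cell genes were high in CD36+ NK replicate 1 alone of its group (summed 353, 57.8 and 63.1 CPM, against 154, 145 and 186), and dendritic cell genes summed lower in CD36+ NK (299 to 363 against 475 to 657 CPM) despite the positive median. Alternatives were DESeq2 1.42.0, upper-quartile scaling, other filters and folds, a replicate block and leaving out each library. Python 3.11.15 was used for tables and figures. Some members are counted but not reported by name here.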

Additional observations from a re-analysis of the deposited data

How the results depend on the processing

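The number of higher DEGs among the lysosome genes was 13 as reported, 2 to 18 when 1 library was left out, 29 with the adjusted p alone (4 to 33 when 1 library was left out) and 2 with a fold above 4. Over all tested genes it was 440 as reported and 94 to 708 with 1 library left out. The number of lower DEGs was 2 as reported, 2 to 3 when 1 library was left out, 7 with the adjusted p alone and 1 with a fold above 4. The median log2 fold change was 0.23 as reported and 0.17 to 0.25 with 1 library left out. Upper-quartile scaling, DESeq2 and a stricter filter gave 13, 14 and 13 higher DEGs, and no filter gave 11. By the adjusted p alone DESeq2 gave 43 higher and 7 lower members. Psap, Ctsc, Hexa, Lamp1, Lamp2 and Acp2 were among these 43 but not among the 29 of edgeR. Over all tested genes DESeq2 gave 652 higher DEGs, also more than the 440 of edgeR. The cause of these shifts was not tested.

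With the replicate number as a block, 2 members were higher DEGs (1.68% of 119, against 221 of all 14761 tested genes) and 2 were lower (1.68%, against 2.30%), so the higher share was near the background, and 3 higher and 6 lower members passed the adjusted p. The numbers were not shown to pair the libraries: deviations from the group means correlated at 0.310, 0.0515 and -0.0837 for replicates 1, 2 and 3. Chosen after seeing the data, the form of the library names as a block gave 12 higher and 2 lower DEGs. Replicates 2 and 3 of both groups alone, whose names share a form, gave 1 (0.840%, against 0.714%) and 3 (2.52%, against 2.20%), also near it.

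With 1 library left out, the direction turned for 23 of the 119 tested members, whose log2 fold changes had been -0.10 to 0.23 and 0 of which had passed the adjusted p, among them Ctsd, Ctse, Ctsg, Gla, Smpd1 and Npc2. Of the genes named by rule, it turned in any alternative for 2: Tcirg1 ranged from -0.0077 to 0.0568 with 1 library left out, with -0.0077 without CD36+ NK replicate 2 and -0.0057 without CD36- NK replicate 3. Atp6v1h ranged up to 0.0502 without CD36+ NK replicate 1 and had -0.0132 without CD36+ NK replicate 2, -0.0323 without CD36+ NK replicate 3, -0.0251 without CD36- NK replicate 1 and -0.0013 with DESeq2. For the genes named by rule, 370 of 507 refitted values kept direction and side of the threshold, 123 fell below it, 8 passed it and 6 turned.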
